A study of Mus musculus with 12 samples.

Results

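The BCL2 family decides at the outer mitochondrial membrane whether a cell commits to the intrinsic pathway of apoptosis. Its transcripts were followed here in tumor-associated macrophages (TAMs) sorted from B16 melanoma tumors. The 10 genes described were chosen by symbol from the 55401 genes of each count table, with earlier results of these data known. They were the pro-survival genes Bcl2, Bcl2l1 (BCL-XL), Mcl1, Bcl2a1b and Bcl2a1d (mouse copies of BFL1/A1), the effectors Bax and Bak1, and the BH3-only genes Bcl2l11 (BIM), Bid and Bbc3 (PUMA). All 10 had 1 row in both tables and passed the filter on low counts in both comparisons.

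As background, the effectors BAX and BAK open pores in the outer membrane and release cytochrome c, which leads to caspase activation. The pro-survival proteins hold the effectors in check, and the BH3-only proteins, made in response to stress or loss of growth factor signals, bind the pro-survival proteins or trigger the effectors directly. MCL1 and A1 are short-lived proteins whose transcripts are known to respond to NF-kB and cytokine signals. Transcription of the BIM gene is known to respond to FOXO factors.

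RNA was sequenced from CD45+CD11b+Ly6C−Ly6G−F4/80+ cells of subcutaneous B16-F10 tumors, with 3 samples in each of 4 groups. WT TAMs came from AMPKfl/fl mice and AMPK-KO TAMs from mice labelled AMPKfl/flLyz2cre/cre, in which the promoter of Lyz2 drives Cre in myeloid cells (the genotype labels of replicates 2 and 3 write Lyz3 and Lyz4), and the methods place these tumors at day 15. Early-stage and late-stage TAMs came from day 8 and day 15 tumors of mice with the genotype label WT, which the methods describe as female C57BL/6 mice. The methods give an age of 5 weeks for all mice used. The floxed alleles are carried by both WT and AMPK-KO TAMs, and no sample received a drug. The labels do not say whether the samples of a group came from separate mice or from pools, so p-values measure the spread between these samples, which may be technical.

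Library totals were 71019494 to 84470374 counts. The counts of Prkaa1, the gene of the AMPK catalytic subunit α1, were 4535 to 5165 in WT and 3285 to 3467 in AMPK-KO TAMs, and the gene was lower by the test (log2 fold change −0.60, adjusted p = 2.26e-04). A few properties of the libraries went against their descriptions. Lyz2, a defining myeloid transcript, had 671 to 1088 counts in both the WT and the AMPK-KO libraries, against 88212 to 249165 in the early-stage and late-stage libraries, although WT TAMs are labelled without Cre. Y-linked genes, which female mice lack, had 9229 to 12183 counts in WT and AMPK-KO, 3435 to 4035 in early-stage and 0 to 4 in late-stage libraries. The summed CPM (counts scaled to a common library size by TMM) of 11 macrophage markers was 12200 to 15200 over all 12 libraries, and those of other cell types are given beside the results. In AMPK-KO TAMs 2 of the 11 macrophage markers were higher (Csf1r 0.14 and Itgam 0.55 on the log2 scale, adjusted p = 0.0177 and 3.41e-05) and 1 was lower (Cd68 −0.55, adjusted p = 1.18e-05). In late-stage TAMs C1qa was higher (0.49, adjusted p = 0.0291) and Lyz2 lower (−1.33, adjusted p = 1.89e-05).

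All 4 groups had the same 2 leading members when CPM was divided by exon length. Mcl1 was the highest member, at 265 ± 8.69 CPM per kilobase in WT, 283 ± 4.46 in AMPK-KO, 270 ± 16 in early-stage and 231 ± 6.99 in late-stage TAMs (SD, n = 3). Bcl2a1b was the second in each group, with means of 161 to 199 CPM per kilobase. Bax was the third in WT, early-stage and late-stage TAMs, at 90.4 to 116 CPM per kilobase. In AMPK-KO TAMs the third was Bcl2a1d at 105 ± 10.1, which overlapped Bax at 104 ± 3.88. Bcl2l1 was the sixth in every group, at 30.6 to 39.9 CPM per kilobase. The BH3-only genes Bid, Bcl2l11 and Bbc3 lay between 4.66 and 10.1 CPM per kilobase, and Bcl2 was the lowest member in every group at 1.92 to 2.49. The neighbours in this order that overlapped were Bak1 and Bcl2a1d in WT, Bcl2a1d with Bax and Bcl2l11 with Bid in AMPK-KO, Bax with Bcl2a1d, Bid with Bcl2l11 and Bcl2l11 with Bbc3 in early-stage, and Bid with Bbc3 in late-stage TAMs. Both tables were scaled separately, so levels of WT or AMPK-KO against early-stage or late-stage TAMs were not tested.

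**Figure D1:**
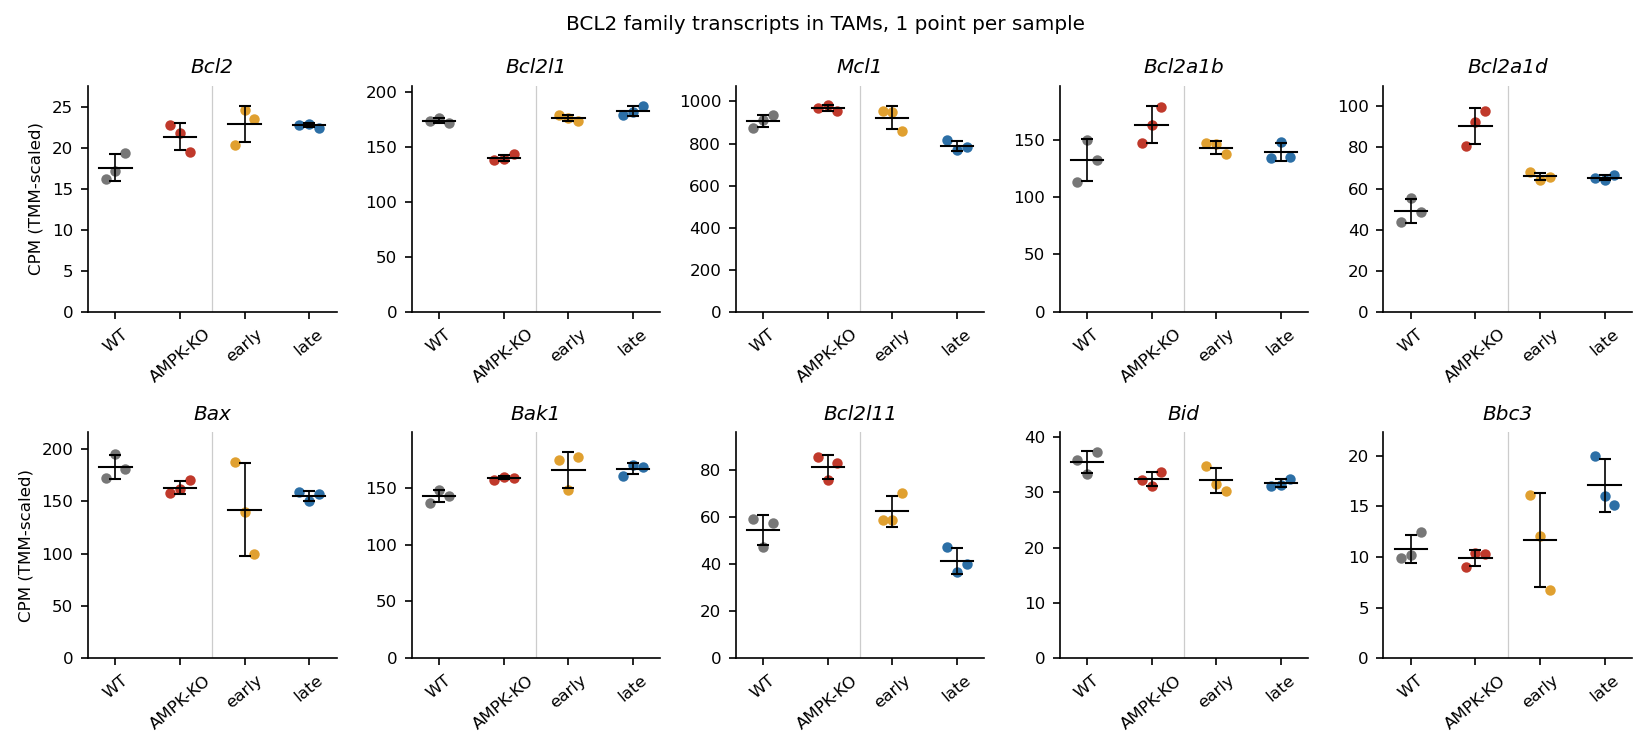
CPM (TMM-scaled, axes from 0) of the 10 BCL2 family genes in each of the 12 samples, with 1 point per sample, horizontal lines for the mean and bars for the SD of 3 samples. Bcl2a1d and Bcl2l11 lay higher in every AMPK-KO sample than in any WT sample, Bcl2l11 lay lower in every late-stage than in any early-stage sample, and Bax and Bbc3 were spread widely among the early-stage samples.

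The first comparison set TAMs labelled as AMPK-KO against those labelled as WT. Prkaa1 was lower but not absent in AMPK-KO TAMs (42.9 ± 3.53 CPM, against 65 ± 3.34 CPM in WT). Lyz2 was low in both groups, as given above, so the genotypes rest on the labels. In AMPK-KO TAMs, 2 of the 10 members lay above and 1 lay below WT at an adjusted p under 0.05 (edgeR's quasi-likelihood test with Benjamini-Hochberg adjustment over all 17532 genes tested). Among all genes tested, 11.3% were called higher and 9.78% lower (21.1% in either direction). Bcl2a1d and Bcl2l11 were higher, the one a pro-survival and the other a pro-apoptotic gene, and the pro-survival gene Bcl2l1 was lower. None of the 3 passed, with edgeR or DESeq2, an absolute log2 fold change of 1, the additional threshold for a differentially expressed gene, which 2.05% (higher) and 1.28% (lower) of all genes passed. The groups did not overlap for 7 of the 10 members, against 37.2% of all genes, and the median log2 fold change of the members was 0.12, against 0 for all genes. These libraries are bulk RNA, in which fewer cells of a type and less RNA per cell cannot be told apart.

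Bcl2a1d, 1 of the A1 copies, had 43.6, 55.4 and 48.7 CPM in WT and 80.8, 92.3 and 97.9 CPM in AMPK-KO TAMs. Every AMPK-KO sample lay above every WT sample, and the mean was 1.84-fold higher (49.2 ± 5.92 against 90.3 ± 8.72, SD, n = 3; log2 fold change 0.88, SE 0.10, adjusted p = 1.09e-04). Bcl2a1b had 113, 150 and 132 CPM in WT and 147, 163 and 178 in AMPK-KO TAMs. These groups overlapped, and the difference of 0.30 (SE 0.10) on the log2 scale had an adjusted p of 0.0553. The copy Bcl2a1a, which was not among the 10 members, had 27.0, 35.6 and 30 CPM in WT and 51.0, 53.8 and 58.4 CPM in AMPK-KO TAMs. It was 1.76-fold higher (log2 fold change 0.82, SE 0.10, adjusted p = 2.18e-04), without overlap. No count lay on the copy Bcl2a1c in these 6 libraries, which allows up to 3 counts each.

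The 3 expressed copies differ at few bases, and so their counts depend on how reads were split among them. The loci lie on chromosome 9 of GRCm38, where GENCODE M21 places Bcl2a1d at 88723285 to 88731914 (minus strand), Bcl2a1a at 88956900 to 88962419 and Bcl2a1b at 89199209 to 89207827 (both plus strand), each with 2 exons. Over 519 coding bases, Bcl2a1a and Bcl2a1b differ at 11 positions (97.9% identity), Bcl2a1a and Bcl2a1d at 7 (98.7%) and Bcl2a1b and Bcl2a1d at 6 (98.8%). The first 120 coding bases, in the first coding exon, hold 7 of the 12 positions at which any of the 3 differ, and are shown because, within the coding sequence, only reads over such positions tell the copies apart. Capitals mark those 7 positions. The stretches are chr9:88957051-88957170 (Bcl2a1a, plus strand), chr9:89199360-89199479 (Bcl2a1b, plus strand) and chr9:88731600-88731719 (Bcl2a1d, minus strand).
Bcl2a1a: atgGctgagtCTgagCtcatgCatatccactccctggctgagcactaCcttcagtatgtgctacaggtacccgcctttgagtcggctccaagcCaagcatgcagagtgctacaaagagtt
Bcl2a1b: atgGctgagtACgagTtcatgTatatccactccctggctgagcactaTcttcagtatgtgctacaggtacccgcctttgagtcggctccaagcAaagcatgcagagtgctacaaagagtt
Bcl2a1d: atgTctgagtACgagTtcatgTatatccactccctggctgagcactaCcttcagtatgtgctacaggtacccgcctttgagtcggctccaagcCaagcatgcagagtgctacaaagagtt

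Of all 100-base stretches of the transcripts, 43.5% of those in Bcl2a1a, 31.1% of those in Bcl2a1b and 54.7% of those in Bcl2a1d also occur in another of the 3 copies. How the counting treated reads that fit several places was not given in the sources used here, so values of single copies are uncertain. Bcl2a1b also shares 401 exon bases on the same strand with the gene Gm29094, which had 0 to 237 counts over all libraries. If each read was counted once, the sum of the 3 copies does not depend on how reads were split among these copies. If reads that fit several copies were dropped or counted more than once, these choices also alter the sum. It was 184, 241 and 211 CPM in WT and 279, 309 and 335 CPM in AMPK-KO TAMs, again without overlap (212 ± 28.7 against 308 ± 28.1; log2 fold change 0.54, SE 0.10, adjusted p = 0.00262). The share of these counts on Bcl2a1b was 61.6, 62.3 and 62.7% in WT and 52.7, 52.8 and 53.3% in AMPK-KO TAMs. The groups also did not overlap in the shares of Bcl2a1d (23.2 ± 0.387% against 29.4 ± 0.445%) and Bcl2a1a (14.6 ± 0.273% against 17.7 ± 0.515%). The difference in these shares was not tested.

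**Figure D2:**
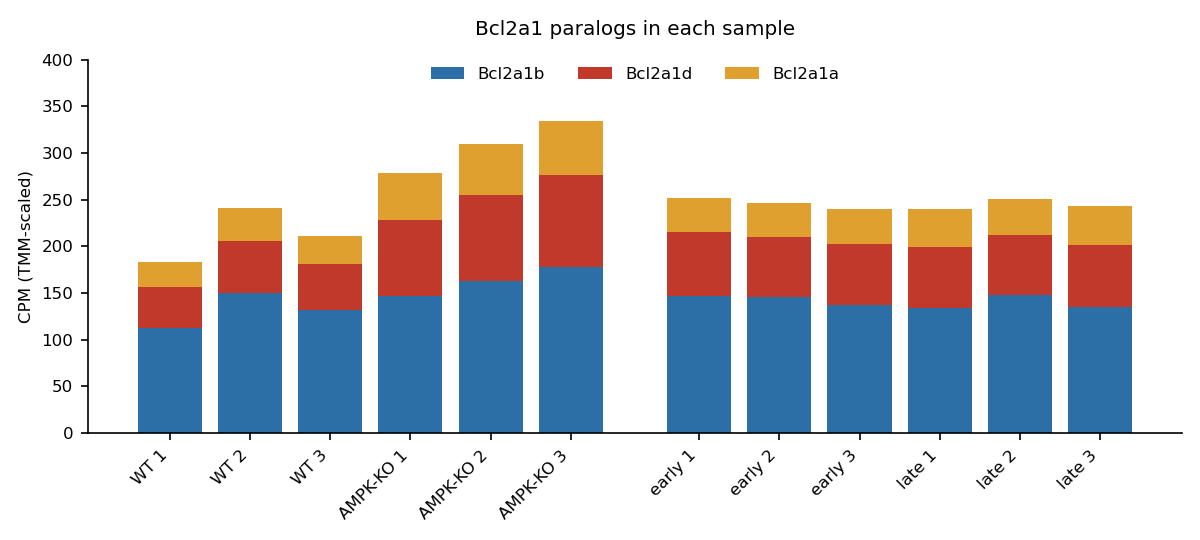
Stacked bars of the CPM (TMM-scaled) of Bcl2a1b, Bcl2a1d and Bcl2a1a in each of the 12 samples, 1 bar per sample. The summed bars reached 184 to 241 CPM in WT, 279 to 335 in AMPK-KO and 240 to 252 in early-stage and late-stage samples.

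The other pro-survival members did not move together. Bcl2l1 had 174, 177 and 172 CPM in WT and 138, 139 and 144 CPM in AMPK-KO TAMs. Each AMPK-KO sample was below each WT sample, and the mean fell by 0.31 on the log2 scale (SE 0.05, adjusted p = 7.87e-04). Mcl1 had 876, 910 and 936 CPM in WT and 969, 983 and 953 CPM in AMPK-KO TAMs. Although the groups did not overlap, the log2 difference was 0.09 (SE 0.04) and did not pass the test (adjusted p = 0.138). Bcl2 had 16.2, 17.2 and 19.4 CPM in WT and 22.8, 21.8 and 19.5 CPM in AMPK-KO TAMs, a log2 difference of 0.28 (SE 0.10, adjusted p = 0.0751). The lowest AMPK-KO sample lay just above the highest WT sample.

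Neither effector passed the test. Bax had 172, 195 and 181 CPM in WT and 158, 162 and 170 in AMPK-KO TAMs, with a log2 difference of −0.16 (SE 0.06, adjusted p = 0.0752). Bak1 had 137, 148 and 143 CPM in WT and 157, 160 and 159 in AMPK-KO TAMs, with a log2 difference of 0.15 (SE 0.05, adjusted p = 0.0506). The groups did not overlap for either gene, and the estimates had opposite signs. The adjusted p of Bak1 was 0.0299 with DESeq2, and that of Bcl2a1b was 0.00799. Bak1 shares 437 exon bases on the opposite strand with Ggnbp1, which had 4 to 57 counts over all libraries.

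Among the BH3-only members, only Bcl2l11 passed the test. It had 59.2, 47.4 and 57.3 CPM in WT and 85.3, 75.6 and 82.8 CPM in AMPK-KO TAMs. All AMPK-KO samples lay above all WT samples, a 1.49-fold higher mean (54.6 ± 6.36 against 81.2 ± 5.01, SD, n = 3; log2 fold change 0.57, SE 0.09, adjusted p = 9.41e-04). Bid, which caspase cleavage turns into an activator of the effectors, had 35.9, 33.4 and 37.3 CPM in WT and 32.3, 31.1 and 33.7 CPM in AMPK-KO TAMs, with overlap (log2 difference −0.13, SE 0.07, adjusted p = 0.220). Bid shares 628 exon bases on the opposite strand with Bcl2l13, and the strand setting of the counting was not given in the sources used here. Bbc3, a p53 target, had 9.90, 10.2 and 12.5 CPM in WT and 9, 10.4 and 10.3 CPM in AMPK-KO TAMs, also with overlap (log2 difference −0.13, SE 0.12, adjusted p = 0.509).

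The other family genes numbered 16, of which 13 were tested. With edgeR, 3 of them were called higher and 0 lower in AMPK-KO TAMs (1 lower at an unadjusted p under 0.05, and 0 with DESeq2). These 3 were Bcl2a1a, described above, Bmf and Bcl2l14. Bmf, a BH3-only gene, was 1.38-fold higher (7.98 ± 1.22 against 11 ± 1.1 CPM, adjusted p = 0.0352), although its call was lost when any sample other than WT replicate 1 was left out (adjusted p 0.0532 to 0.150). Bcl2l14 was 1.86-fold higher at a low level (2.73 ± 0.529 against 5.07 ± 0.490 CPM, adjusted p = 0.00528). Bcl2l10 and Hrk had no count in any of the 12 libraries. For the pro-survival gene Bcl2l2 (BCL-W) and the BH3-only genes Bad and Pmaip1 (NOXA), the log2 differences were 0.08, 0.08 and 0.09, and none passed the test.

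**Figure D3:**
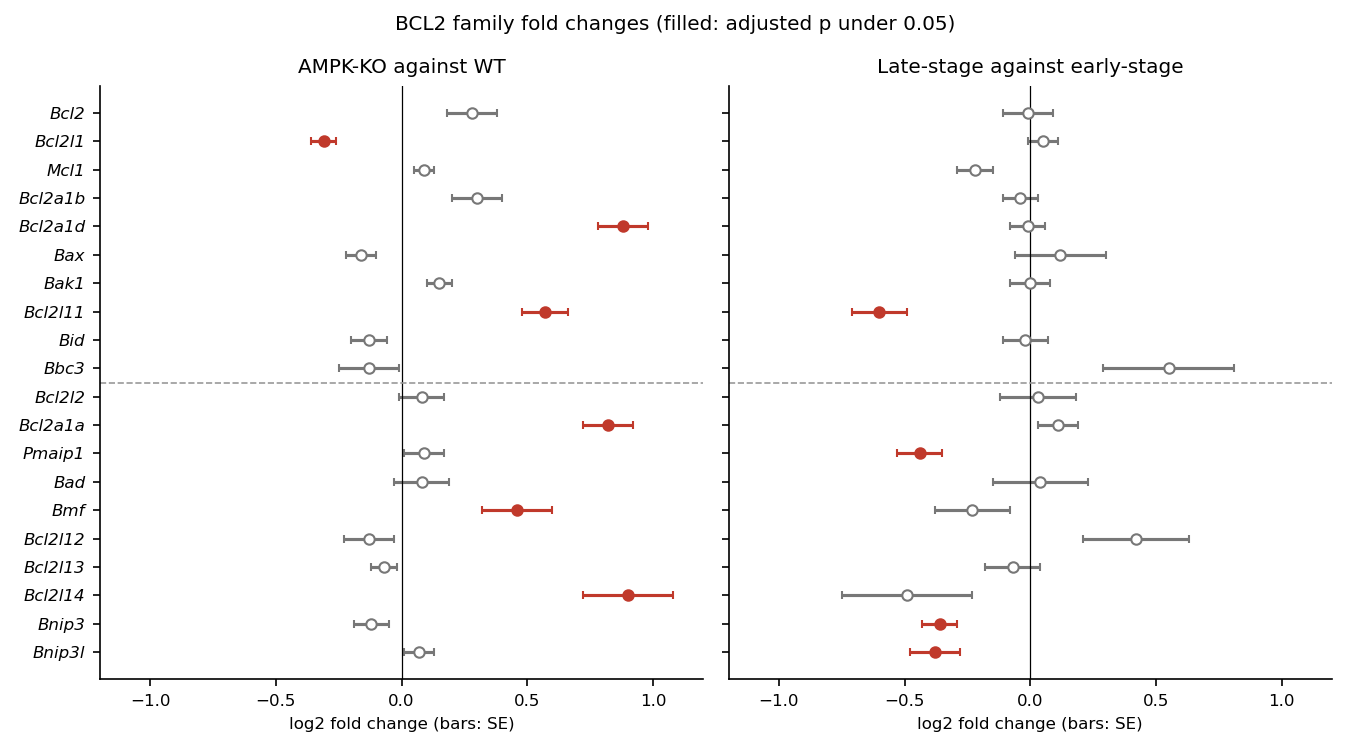
Log2 fold changes of the 10 members (above the dashed line) and of the 10 other family genes with a mean above 1 CPM in every group, for AMPK-KO against WT (left) and late-stage against early-stage TAMs (right). Bars are SEs and filled points had an adjusted p under 0.05. Bcl2l11 is filled on both sides, at 0.57 and −0.60.

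The promoters of the copies and of Bcl2l11 are shown because these genes carry the differences above. RefSeq start sites on GRCm38.p6 matched all 10 members and Bcl2a1a, with 16 windows of 250 bases upstream of a start. Of each window shown, bases 250 to 71 before the start are printed. Capitals mark 2 motifs searched on both strands, GAGGAAGT, which macrophage factor PU.1 is known to bind, in the A1 copies, and GTAAACA, which FOXO factors are known to bind, in Bcl2l11. The windows are chr9:88731921-88732100 (Bcl2a1d, minus strand), chr9:88956670-88956849 (Bcl2a1a, plus strand), chr9:89199023-89199202 (Bcl2a1b, plus strand) and chr2:128125788-128125967 (Bcl2l11, plus strand).
Bcl2a1d: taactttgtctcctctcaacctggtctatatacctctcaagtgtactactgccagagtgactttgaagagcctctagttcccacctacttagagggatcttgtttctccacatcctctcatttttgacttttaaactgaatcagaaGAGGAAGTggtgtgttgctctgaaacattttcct
Bcl2a1a: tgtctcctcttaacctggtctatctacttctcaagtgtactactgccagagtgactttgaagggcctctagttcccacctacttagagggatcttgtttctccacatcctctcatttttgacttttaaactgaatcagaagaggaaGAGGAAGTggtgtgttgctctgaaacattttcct
Bcl2a1b: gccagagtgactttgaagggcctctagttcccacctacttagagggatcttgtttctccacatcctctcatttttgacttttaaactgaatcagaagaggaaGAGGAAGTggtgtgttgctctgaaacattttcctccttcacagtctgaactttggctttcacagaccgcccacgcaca
Bcl2l11: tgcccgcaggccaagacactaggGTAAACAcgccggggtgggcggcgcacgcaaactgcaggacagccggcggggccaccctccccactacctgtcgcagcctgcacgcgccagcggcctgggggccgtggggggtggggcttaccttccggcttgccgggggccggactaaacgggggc

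The PU.1 letters lay 104 bases before the start of Bcl2a1d and of Bcl2a1a and 148 bases before that of Bcl2a1b, and 2.44% of all 32851 RefSeq windows of 250 bases hold them. They were also in the window of Bak1. The windows of the 3 copies share long stretches of sequence, so their matches are not independent. The FOXO letters lay 227 bases before 1 start of Bcl2l11 and were also in a window of Bbc3, against 3.17% of all windows. The NF-kB consensus was in a window of Bcl2l1 and of Bbc3, against 7.25% of all windows. It was in no window of the A1 copies or of Bcl2l11. The motifs did not overlap each other, and a match describes letters only.

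Genes of transcription factors known to drive pro-survival genes were examined next. AMPK-KO TAMs had 5 of 8 NF-kB and STAT genes above WT by the test and 0 below it (0 also at an unadjusted p under 0.05 and with DESeq2), and the median log2 fold change was 0.22. Over all genes tested, the shares were 11.3% higher and 9.78% lower. Nfkb1, the gene of the NF-kB subunit p50, had 198 ± 1.36 CPM in WT against 262 ± 1.81 CPM in AMPK-KO TAMs (log2 fold change 0.40, adjusted p = 8.22e-05). Stat3 had 248 ± 2.94 and 321 ± 14 CPM (0.37, adjusted p = 3.16e-04), and Rel, which encodes c-Rel, had 47.9 ± 5.07 and 69.2 ± 1.59 CPM (0.53, adjusted p = 6.99e-04). Nfkb2 had 120 ± 4.32 and 138 ± 0.922 CPM (0.21, adjusted p = 0.0122), and its call held under 11 of 13 alternatives, whereas those of the other 3 named genes held under all 13. None of the 7 genes of stress factors that induce BH3-only genes (among them Trp53, Foxo1, Foxo3 and Ddit3) was called by edgeR or DESeq2, against 21.1% of all genes with edgeR. At an unadjusted p under 0.05, 2 of the 7 were lower with either tool, against 2899 of 27505 genes with DESeq2. The part of the factors of both lists in the results on the members was not tested.

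The genes around the mitochondrial step were mostly not called. Of 13, Apaf1, the scaffold of the apoptosome, was higher (75.6 ± 2.81 against 88.0 ± 5.12 CPM, log2 fold change 0.22, adjusted p = 0.0274), and the channel genes Vdac1 (−0.17, adjusted p = 0.0225) and Vdac3 (−0.18, adjusted p = 0.0369) were lower. Of 11 p53 targets, Sesn2 was higher (0.26, adjusted p = 0.0367) and Zmat3 lower (−0.43, adjusted p = 0.00372), while the median was −0.09. Of 11 genes of ubiquitin enzymes and kinases that set the turnover or activity of MCL1 and BIM proteins, Pim2, a survival kinase, was higher (0.42, adjusted p = 0.0462) and Mapk3, the gene of ERK1, was lower (−0.27, adjusted p = 0.00193). The calls of Apaf1, Vdac1, Vdac3, Sesn2 and Pim2 held under 8, 9, 9, 6 and 4 of 13 alternatives.

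Markers of other cells moved with the same groups. Between WT and AMPK-KO TAMs the summed markers were 76.5 to 91.5 against 148 to 156 CPM for T cells (5 of 6 markers higher), 21.3 to 25.9 against 49.8 to 53.5 CPM for NK cells (5 of 5 higher), 46.8 to 52.8 against 77.5 to 85.4 CPM for dendritic cells (5 of 7 higher) and 111 to 119 against 183 to 185 CPM for neutrophils (4 of 8 higher, with the defining marker Ly6g at 0 in all 6 libraries). They were 958 to 962 against 647 to 690 CPM for melanoma cells (5 of 6 lower), 432 to 475 against 568 to 625 CPM for fibroblasts (4 of 4 higher), 49.6 to 57.7 against 116 to 119 CPM for endothelial cells (2 of 3 higher, 1 lower) and 30.9 to 32.5 against 19.9 to 22.1 CPM for B cells (4 of 5 lower, 1 higher). Lymphocytes, dendritic cells and neutrophils are known to express members of this family, and the part of these cells in the results on Bcl2a1d, Bcl2a1a, Bcl2l11 and Bcl2l1 was not tested.

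The second comparison asked how TAMs differ between day 8 and day 15 of tumor growth. Y-linked counts were 3435 to 4035 in the early-stage and 0 to 4 in the late-stage libraries. Tumor stage and the sex of the mice therefore cannot be told apart in any result of this comparison. Of the 10 members, 0 were higher and 1, Bcl2l11, was lower in late-stage TAMs (edgeR's quasi-likelihood test, adjusted over 17630 genes). Over all genes, 4.31% were called higher and 4.88% lower (9.18% in either direction). The groups did not overlap for 2 of the 10 members (Bcl2l11 and Mcl1), against 31.2% of all genes, and the median log2 fold change of the members was −0.01. With either tool, no member passed an absolute log2 fold change of 1, which 0.601% (higher) and 1.26% (lower) of all genes did. At an unadjusted p under 0.05, edgeR gave 0 members higher and 2 lower, and DESeq2 gave 1 higher and 2 lower. Over all genes, DESeq2's unadjusted p gave 2339 higher and 2286 lower of 27836. The share of all genes at edgeR's unadjusted p was not taken.

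Bcl2l11 had 58.6, 58.7 and 70.0 CPM in early-stage and 47.2, 36.6 and 40 CPM in late-stage TAMs. Each late-stage sample lay below each early-stage sample, and the mean was 0.661 of the early-stage mean (62.4 ± 6.55 against 41.3 ± 5.43, SD, n = 3; log2 fold change −0.60, SE 0.11, adjusted p = 0.0106). The call was lost without late-stage replicate 2 (log2 fold change −0.52, adjusted p = 0.0621) or replicate 3 (−0.57, adjusted p = 0.0620). It was the only member called in both comparisons, higher in AMPK-KO than in WT and lower in late-stage than in early-stage TAMs, which rest on different samples. From the lowest to the highest, its group means were 41.3 CPM (late-stage), 54.6 (WT), 62.4 (early-stage) and 81.2 (AMPK-KO). The late-stage and WT tumors were both from day 15.

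Mcl1 had 956, 951 and 859 CPM in early-stage and 815, 768 and 784 CPM in late-stage TAMs. The groups did not overlap, but the log2 difference of −0.22 (SE 0.07) had an adjusted p of 0.0776. It was 0.0400 with DESeq2 and 0.0150 without early-stage replicate 3, so that the call depended on these choices. The A1 copies had nearly equal means at both stages. Bcl2a1d had 67.9, 64.1 and 65.8 CPM against 65.2, 64.0 and 66.7 CPM (log2 difference −0.01, SE 0.07, adjusted p = 0.930), and Bcl2a1b had 147, 146 and 137 against 134, 148 and 135 CPM (−0.04, SE 0.07, adjusted p = 0.781). The 3 copies summed to 246 ± 6.25 CPM in early-stage and 245 ± 5.53 CPM in late-stage TAMs (log2 difference −0.01, SE 0.06, adjusted p = 0.950).

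The remaining pro-survival members, Bak1 and Bid overlapped between stages. Bcl2 had 20.4, 24.6 and 23.5 CPM in early-stage and 22.8, 23.0 and 22.5 CPM in late-stage TAMs (log2 difference −0.01, SE 0.10). Bcl2l1 had 179, 177 and 174 CPM against 179, 182 and 188 CPM (0.05, SE 0.06). Bak1 had 175, 148 and 177 CPM against 161, 170 and 169 CPM, and Bid had 34.7, 31.6 and 30.3 CPM against 31.2, 31.3 and 32.5 CPM. The adjusted p-values of these 4 genes were 0.684 to 0.982.

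Among the 10 members, Bax and Bbc3 stood apart by their spread in early-stage TAMs. Bax had 188, 140 and 99.2 CPM in the early-stage samples and 159, 150 and 157 CPM in the late-stage samples (log2 difference 0.12, SE 0.18, adjusted p = 0.728). Bbc3 had 16.1, 12.1 and 6.78 CPM in the early-stage and 20, 16 and 15.1 CPM in the late-stage samples (0.55, SE 0.26, adjusted p = 0.231). In both genes early-stage replicate 1 was the highest and replicate 3 the lowest of the group. The cause of this spread was not tested. The transcripts of Bax and Bbc3 have the highest GC content of the 10 members, 63.5% and 65.2%. Bak1, the next at 57.1%, had 175, 148 and 177 CPM in early-stage replicates 1, 2 and 3. Some of the other family genes also fell in this order. Bad, also at 57.1%, had 25, 17.6 and 13.8 CPM, Bcl2l12 had 14.1, 9.35 and 7.02 CPM and Bcl2l2 had 26.5, 19.8 and 17.3 CPM. Bcl2l13, Bnip3 and Bnip3l rose from replicate 1 to replicate 3 instead. As a measure of GC content in each library, the median deviation of log2 CPM was taken for the genes of the highest GC decile (at least 57.6%) minus that of the lowest (at most 41.2%). It was 0.21, −0.16 and −0.49 in early-stage replicates 1, 2 and 3, against 0.14 to 0.16 in late-stage and −0.09 to 0.09 in WT and AMPK-KO libraries. With an offset for GC content in the fit, chosen after seeing the data, the log2 difference of Bax was −0.04 (adjusted p = 0.802). That of Bbc3 was 0.38 (adjusted p = 0.17), and neither passed the test. Without early-stage replicate 3 they were −0.08 (adjusted p = 0.734) and 0.27 (adjusted p = 0.357), and without early-stage replicate 1 they were 0.38 (adjusted p = 0.0773) and 0.86 (adjusted p = 0.0403), so that Bbc3 passed the test there.

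**Figure D4:**
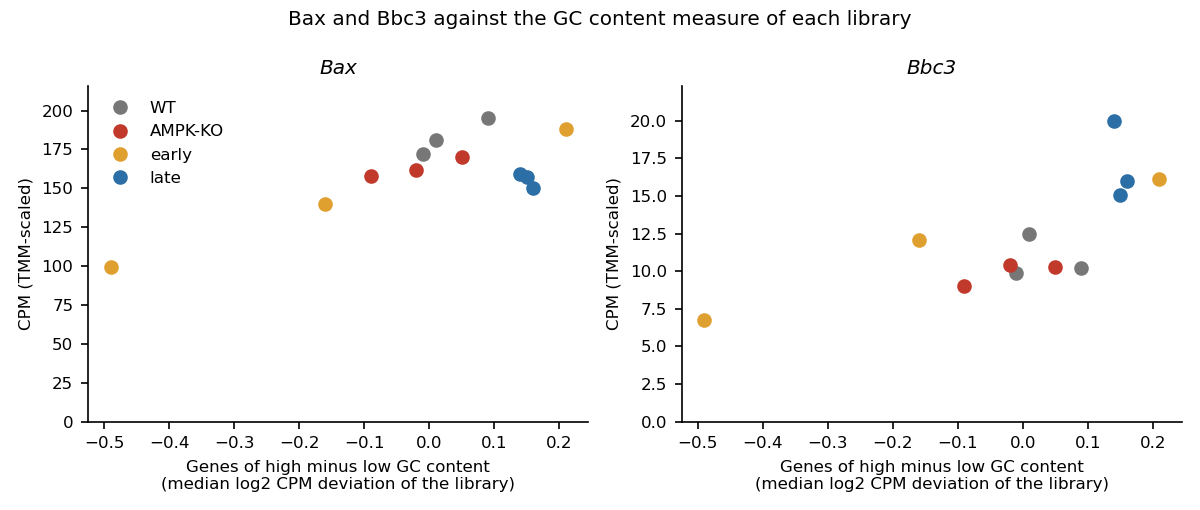
CPM (TMM-scaled, axes from 0) of Bax and Bbc3 against the GC content measure of each library (log2), 1 point per library, coloured by group. The 3 early-stage libraries span −0.49 to 0.21 on this measure, with Bax at 99.2 to 188 CPM, whereas the late-stage libraries lie at 0.14 to 0.16.

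Among the other family genes, 3 of the 13 tested were lower and 0 higher in late-stage TAMs (0 higher also at edgeR's unadjusted p under 0.05 and with DESeq2). Pmaip1, a BH3-only gene, had 36.4 ± 0.769 CPM in early-stage and 26.9 ± 2.39 CPM in late-stage TAMs, a log2 fold change of −0.44 (adjusted p = 0.0194). Bnip3, a mitophagy receptor induced by hypoxia, had 223 ± 13.1 and 175 ± 2.80 CPM (−0.36, adjusted p = 0.0127), and its relative Bnip3l had 117 ± 14.3 and 89.9 ± 4.60 CPM (−0.38, adjusted p = 0.0346). All 3 calls were lost without early-stage replicate 2, late-stage replicate 2 or late-stage replicate 3, and those of Bnip3 and Bnip3l also without late-stage replicate 1, with adjusted p-values up to 0.107 (Pmaip1), 0.0757 (Bnip3) and 0.143 (Bnip3l). Without any filter on low counts the call of Bnip3l was lost as well (adjusted p = 0.0850).

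In the remaining lists few genes were called between stages. None of the 13 genes of the mitochondrial step and none of the 7 stress factor genes passed the test with edgeR. At an unadjusted p under 0.05, 1 gene of the first list was higher and 1 lower, and 2 of the second were higher and 1 lower, while DESeq2's adjusted p called 1 gene of each list higher. Of 11 p53 targets, Cdkn1a, the gene of the cell cycle inhibitor p21, was lower (371 ± 48.6 against 259 ± 9.14 CPM, −0.52, adjusted p = 0.00838), and the list's median was −0.26. DESeq2 called 4 of these 11 lower, and at an unadjusted p under 0.05 edgeR gave 7 lower and DESeq2 6, while 0 were higher in each. Over all genes, DESeq2 called 1251 of 15551 lower, and 2286 of 27836 at its unadjusted p. Of 8 NF-kB and STAT genes, Nfkb1 was higher (180 ± 9.81 against 215 ± 2.27 CPM, 0.26, adjusted p = 0.0473), and of 11 turnover and kinase genes, Fbxw7, whose ubiquitin ligase targets MCL1, was lower (−0.41, adjusted p = 0.0319). Cdkn1a lost its call without late-stage replicate 2 (adjusted p = 0.0602) or 3 (0.0521). The calls of Nfkb1 and Fbxw7 held under 5 and 7 of 13 alternatives.

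**Figure D5:**
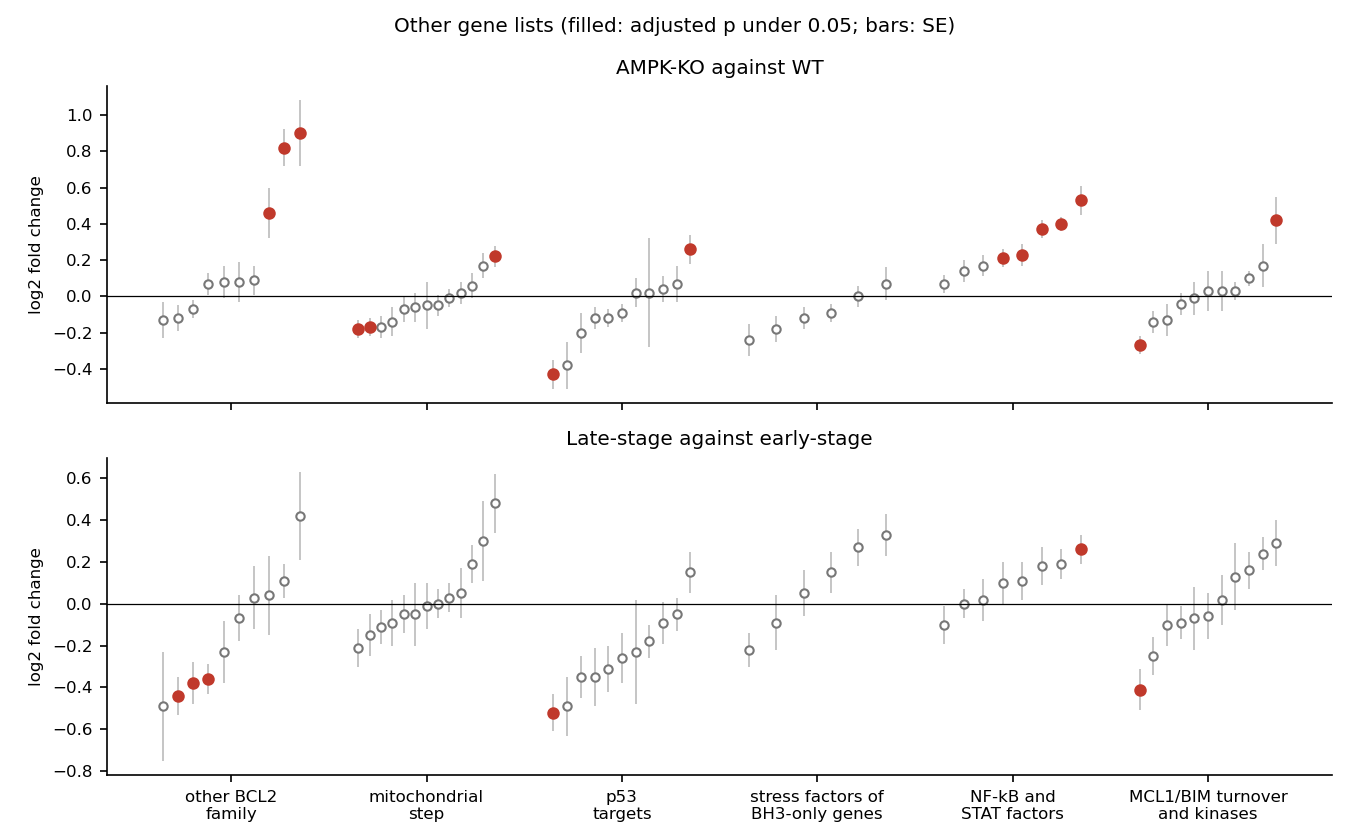
Log2 fold changes of the genes with a mean above 1 CPM in both groups of each comparison, in 6 lists, sorted within each list, for AMPK-KO against WT (top) and late-stage against early-stage TAMs (bottom). Bars are SEs and filled points had an adjusted p under 0.05. In AMPK-KO TAMs, 5 of the 8 NF-kB and STAT factors are filled, the most among these 6 lists, against 21.1% of all genes tested.

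Markers of other cells also differed between stages. From early-stage to late-stage TAMs the summed markers were 60.8 to 70.5 against 22.4 to 31.1 CPM for NK cells (4 of 5 lower), 1610 to 1760 against 737 to 1160 CPM for melanoma cells (5 of 6 lower), 608 to 681 against 297 to 418 CPM for fibroblasts (2 of 4 lower), 128 to 136 against 157 to 188 CPM for T cells (2 of 6 higher) and 37.3 to 41.8 against 57.5 to 82.9 CPM for B cells (3 of 5 higher). Those of neutrophils were 121 to 128 against 104 to 109 CPM (2 of 8 lower), those of dendritic cells 49 to 60.2 against 43.8 to 46.4 CPM (1 of 7 lower) and those of endothelial cells 83.1 to 87.7 against 76.2 to 80.1 CPM (1 of 3 lower). Their part in the results on Bcl2l11, Pmaip1, Bnip3 and Bnip3l was not tested.

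Ratios of an apoptotic to a pro-survival transcript within a sample describe the balance of the pairs. The log2 ratio of Bcl2l11 to Mcl1 in CPM was −4.06 ± 0.19 in WT and −3.58 ± 0.11 in AMPK-KO TAMs, without overlap, and −3.89 ± 0.23 in early-stage and −4.26 ± 0.14 in late-stage TAMs, again without overlap. That of Bax to Bcl2 was 3.38 ± 0.15 in WT and 2.93 ± 0.17 in AMPK-KO TAMs, without overlap, and 2.60 ± 0.57 and 2.77 ± 0.06 at the early and late stage, with overlap. That of Bak1 to Mcl1 differed by 0.06 and 0.23. These ratios are descriptions of transcripts with no test, and protein levels were not measured in these files.

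The genes whose pattern was most like that of a called member were found by Pearson's r of log2 CPM, centred within each table, over 12 samples and 16812 genes. For Bcl2a1d they were Bcl2a1a (r = 0.984), Tapbp (0.979) and Sytl3 (0.966), and for Bcl2l11 they were Pirb (0.978), Irgm1 (0.962) and Irak3 (0.961). The samples of a group share its mean in this measure, so that r reflects differences between groups as well as between samples. Bcl2a1a and Bcl2a1d may also share reads, as described above, and the part of this in their r was not tested.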

How the data were processed

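RNA of sorted TAMs was extracted with RNeasy Plus and libraries were made with a Hieff NGS Ultima kit. The authors mapped reads with HISAT2 and deposited raw counts per gene from featureCounts, in 1 table per comparison. The submitters' notes name mm10 and GRCm38, whereas the methods write GRCh38. Of 55401 identifiers, 54349 match GENCODE M21 with their version. Tool versions, strand and multimapping settings were not given in the sources used here.

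Each table was fitted on its own with edgeR 4.0.16 (filterByExpr, TMM, glmQLFit and glmQLFTest, R 4.3.3), with Benjamini-Hochberg adjustment over all genes tested and a threshold of 0.05. Differentially expressed genes also had an absolute log2 fold change above 1. CPM was divided by the exon length of GENCODE M21 to compare genes. Alternatives were DESeq2 1.42.0, RLE and upper-quartile factors, no filter, at least 10 counts in every library, a replicate block, an offset for GC content (chosen after seeing the data) and each sample left out in turn. The fits were tested on simulated data. The floor of a count of 0 was 3 counts, which covers counting error only.

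The members, lists and tests were chosen with earlier results of these data known. All 10 members are named, and from other lists at most the 4 called genes with the smallest adjusted p per list and comparison. Other family genes may be named for their level.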

Additional observations from a re-analysis of the deposited data

How the results depend on the processing

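In AMPK-KO against WT, Bcl2a1d, Bcl2l11, Bcl2l1 and the summed Bcl2a1 copies passed the test under all 13 alternatives (log2 fold changes 0.80 to 0.97, 0.48 to 0.63, −0.33 to −0.30 and 0.44 to 0.64). Bcl2a1b passed under 5 of 13 (adjusted p 0.00723 to 0.179), Bak1 under 3 (0.0299 to 0.163), Bax under 1 and Mcl1, Bcl2, Bid and Bbc3 under 0. The members called higher numbered 2, but 4 with DESeq2, 6 with its unadjusted p and 4 with at least 10 counts in every library, and 2 to 4 with a sample left out. Over all genes, DESeq2 called 2166 of 19929 higher, its unadjusted p 3030 of 27505 and the filter at 10 counts 2021 of 15285. Members called lower numbered 1, but 2 with DESeq2's unadjusted p, and 1 to 2 with a sample left out. Over all genes, DESeq2's unadjusted p called 2899 of 27505 lower. Genes of the other lists called higher numbered 11, but 7 with no filter and 6 to 11 with a sample left out, and those called lower numbered 4, but 10 with DESeq2's unadjusted p and 2 to 8 with a sample left out.

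In late-stage against early-stage TAMs, Bcl2l11 was lower under 11 of 13 alternatives. Members called higher numbered 0, but 1 with DESeq2's unadjusted p and 0 to 1 with a sample left out, and members called lower numbered 1, but 2 with DESeq2, with its unadjusted p and with the GC offset, and 0 to 2 with a sample left out. Over all genes, DESeq2 called 1160 higher and 1251 lower of 15551, and its unadjusted p 2339 and 2286 of 27836. The GC offset gave 781 higher and 1092 lower of 17630. Genes of the other lists called higher numbered 1, but 0 with upper-quartile factors and with no filter, 3 with DESeq2, 8 with its unadjusted p, 2 with at least 10 counts in every library and 0 to 7 with a sample left out. Those called lower numbered 5, but 8 with DESeq2, 13 with its unadjusted p, 3 with no filter and 0 to 10 with a sample left out. Differences near 0 changed sign. With the GC offset, Bcl2 was 0.03, Bcl2l1 −0.07, Bcl2a1b 0.02, Bcl2a1d 0.04, Bax −0.04 and Bak1 −0.15, and Bak1 was −0.01 with upper-quartile factors. With a sample left out, Bcl2 ranged from −0.08 to 0.05, Bcl2a1d from −0.04 to 0.01, Bax from −0.08 to 0.38, Bak1 from −0.08 to 0.05, Bid from −0.07 to 0.04, the summed Bcl2a1 copies from −0.03 to 0.01 and the log2 ratio of Bax to Bcl2 from −0.09 to 0.48. The cause of these changes was not tested.

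Deviations from the group mean were correlated over all genes. Samples with the same replicate number had correlations of 0 to 0.04, against −0.06 to 0.05 for other pairs. With 3 samples per group, such correlations cannot settle whether the numbers pair the samples. With the replicate block, Bcl2a1b passed the test in AMPK-KO against WT (adjusted p = 0.00723), and no other member changed its call, while Pim2 in the same comparison (adjusted p = 0.0544) and Nfkb1 and Fbxw7 between stages (0.0834 and 0.0594) lost theirs. Over all genes, the block gave 2029 higher and 1833 lower calls against 1978 and 1715, and 674 and 743 against 759 and 860 between stages. The members called in AMPK-KO against WT had absolute log2 fold changes of 0.31 or more, and the 1 called between stages had −0.60. These values are not limits of detection, as Csf1r was called at 0.14 in AMPK-KO TAMs. With 3 samples per group, small differences may be missed.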
